A study of Mus musculus with 6 samples.

Results

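The 9 genes described here build, load and switch on the classical route of antigen presentation by major histocompatibility complex (MHC) class I molecules: B2m, H2-K1, H2-D1, H2-T23, H2-M3, Tap1, Tap2, Tapbp and Nlrc5. They were chosen by name for their place in that pathway, and each mapped to 1 Ensembl gene row, giving 9 of the 37991 gene rows counted in each library. The study compared natural killer (NK) cells lacking Rroid, a long non-coding RNA locus near the transcription factor gene Id2, with wildtype NK cells, and so asked how gene expression differed without it. The libraries came from mouse spleen, with NK cells sorted as CD27+ CD11b+ on the C57BL6 background: 3 were Rroid deficient and 3 were wildtype. All were made from total RNA that was amplified before sequencing, a step used for small samples. The labels do not say how the Rroid locus was disrupted, nor whether libraries of 1 genotype came from separate mice. The p-values below therefore set the genotype difference against the spread between these libraries, which may not be that between mice.

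Class I molecules are cell-surface complexes of a polymorphic heavy chain, the invariant light chain beta-2 microglobulin and a short peptide. Peptides made in the cytosol are pumped into the endoplasmic reticulum by the TAP transporter, tapasin holds empty class I next to it, and the loaded complex travels to the surface. NK cells read class I on other cells through inhibitory receptors, and they carry class I themselves. The NOD-like receptor family protein NLRC5 raises transcription of the heavy chains, B2m and Tap1 by joining a complex of DNA-binding factors on their promoters.

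The libraries held between 6146465 and 7363793 reads assigned to genes in the deficient group and between 5823626 and 9216430 in the wildtype group. Levels are given as CPM, a gene's reads scaled to the library size after correction by the trimmed mean of M-values (TMM). Id2, which lies near Rroid, measured 38.9, 66.7 and 81.2 CPM in deficient libraries, against 468, 338 and 341 CPM in wildtype libraries. It fell by 2.62 on the log2 scale (SE 0.30, adjusted p = 0.0308, edgeR quasi-likelihood test with Benjamini-Hochberg adjustment over 11724 genes). That call was lost whenever 1 library was left out, with adjusted p between 0.0589 and 0.316, while the log2 fold change stayed between −2.86 and −2.37. NK cell markers were abundant in every library, summing to between 10389 and 11008 CPM in deficient cells and between 12143 and 14746 CPM in wildtype cells over 10 genes. Of these, 8 had a log2 fold change below 0 and 2 above, and none passed. The lowest was that of the effector gene Gzma, at 2560 ± 217 CPM in deficient cells and 4501 ± 866 CPM in wildtype cells (mean ± SD). Gzma, Klrb1c, Klrd1 and Klrk1, 4 of the 10, were lower in deficient libraries without overlap, against 6.33% of all genes tested. The other NK cell markers, Ncr1, Prf1 and Il2rb among them, overlapped between the genotypes. The 9 T cell markers summed to between 91.7 and 147 CPM in deficient libraries and between 17.2 and 24.7 CPM in wildtype libraries, with Cd8a and Cd6 at 0 in all 6. Most of that sum was Cd3d and Cd3g, chains of the T cell receptor complex. Cd3d measured 24.1, 56.6 and 67.1 CPM in deficient libraries, against 4.94, 6.76 and 8.65 CPM in wildtype libraries, and Cd3g measured 67.2, 54.8 and 68.2 CPM in deficient libraries, against 5.69, 4.62 and 8.34 CPM in wildtype libraries. Neither passed the edgeR test (adjusted p = 0.543 and 0.131). Cd3e, of the same complex, had 0 reads in every deficient library, against 0, 3 and 0 in wildtype libraries, and Cd4 and Cd8b1 had reads in wildtype library 1 alone. The part of these markers in the results below was not tested. Deficient library 1 and wildtype library 1 stood apart: of 6155 genes averaging at least 20 CPM, 3.64% and 3.43% were at least 2-fold higher in that 1 library than in any other.

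None of the 9 genes differed between the genotypes at an adjusted p under 0.05, in a comparison where 0.0171% of all genes tested passed by edgeR. DESeq2 also passed 0 of 9, where it passed 0.549% of all genes. The light chain and the classical heavy chains lay close to equal in both genotypes, while the transporter subunit Tap1 and the regulator Nlrc5 were higher in all 3 deficient libraries than in any wildtype library without passing the test. Groups that do not overlap were seen for 2 of the 9 genes, against 12.4% of all genes tested in either direction. Both were higher in deficient cells, as were 6.03% of all genes, and 0 of the 9 were lower, against 6.33%. At an unadjusted edgeR p under 0.05 the count was 1 of 9, Nlrc5, against 5.29% of all genes tested in either direction and 2.76% higher in deficient cells. The median log2 fold change of the 9 genes was 0.027, with 5 above 0 and 4 below, beside a median of 0.024 over all genes tested. In RNA from a bulk of sorted cells, fewer cells of a type and less RNA per cell cannot be told apart.

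Before the values, the promoters of 4 of these genes are shown because they hold the same spaced pair of short motifs, which resembles the sites at which NLRC5 and its partners are known to assemble. Of the 9 genes, 7 had promoter entries in the RefSeq table (GRCm38.p6, 250 bases before to 50 after each transcription start). Each window below is 105 bases, written 5′ to 3′ on the gene's strand. Capitals mark TGACG, the core of the X2 box bound by ATF1 and CREB family factors, and ATTGG, the reverse complement of the CCAAT core of the Y box bound by NF-Y. Where present, the motif GAANNGAAA, a form of the interferon-stimulated response core, is also in capitals and reads here on the opposite strand. Other spellings of that core were not searched. The B2m window holds gaaactgaaa near its beginning, which GAANNGAAA does not match, so its lack of capitals there does not mean that it lacks such a site.
B2m (chr2:122147539-122147643, plus strand): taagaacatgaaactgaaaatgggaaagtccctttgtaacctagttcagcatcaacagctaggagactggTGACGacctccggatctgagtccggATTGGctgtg
H2-K1 (chr17:34000354-34000458, minus strand): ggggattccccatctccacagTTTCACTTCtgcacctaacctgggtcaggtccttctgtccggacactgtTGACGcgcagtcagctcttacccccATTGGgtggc
H2-D1 (chr17:35262923-35263027, plus strand): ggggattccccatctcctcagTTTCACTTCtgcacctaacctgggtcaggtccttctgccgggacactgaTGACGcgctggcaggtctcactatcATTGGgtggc
H2-M3 (chr17:37270118-37270222, plus strand): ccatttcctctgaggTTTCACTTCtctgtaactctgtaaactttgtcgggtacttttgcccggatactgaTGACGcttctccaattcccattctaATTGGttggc

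In all 4 windows TGACG was followed by 20 other bases and then ATTGG. The TGACG began 78 bases before the start in B2m, 41 before the first of 2 listed starts in H2-K1, 101 in H2-D1 and 46 in H2-M3. Searched on both strands, this spaced pair was found in 31 of 32851 promoters, or 0.0944%, whereas TGACG alone was in 20.8%, ATTGG alone in 37.4% and GAANNGAAA in 7.52%. The arrangement was chosen after these promoters had been read, and the windows are not independent: those of H2-K1 and H2-D1 matched at 94 of 105 bases, or 89.5%. H2-M3 matched H2-D1 at 55.2% and H2-K1 at 51.4%, and B2m matched the others at 42.9% to 43.8%. The pair was not in the windows of H2-T23, Tap1 or Tapbp. Of the 27 genes whose promoters held it, 18 could be tested, the 4 shown above among them. These 18 divided evenly, 9 above 0 and 9 below, with none passing the test and a median log2 fold change of 0.01.

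B2m, on chromosome 2, encodes the light chain that every classical and most non-classical class I heavy chains need to reach the surface. It measured 4385, 3947 and 4836 CPM in deficient libraries, against 4873, 4275 and 3775 CPM in wildtype libraries. The genotypes overlapped fully, and the highest library was 1.29-fold the lowest. The log2 fold change was 0.03 (SE 0.13), with a 95% interval on the fold from 0.836 to 1.24 (adjusted p = 0.987, edgeR). Per kilobase of exon B2m was the most abundant of the 9, averaging 5104 ± 517 CPM per kb in deficient cells and 5009 ± 639 CPM per kb in wildtype cells (SD, n = 3 each).

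H2-K1 encodes the heavy chain of the classical molecule H2-K. Its level was 2101, 2281 and 2417 CPM in deficient libraries, against 2458, 2294 and 2070 CPM in wildtype libraries. Each genotype had libraries near both ends of this narrow range, with the highest library 1.19-fold the lowest. The fold change had a 95% interval from 0.823 to 1.21 (adjusted p = 0.998, edgeR). H2-D1, the heavy chain of H2-D, measured 1161, 1342 and 1337 CPM in deficient libraries, against 1573, 1225 and 1215 CPM in wildtype libraries. Wildtype library 1 was the highest and the other libraries of both genotypes mixed. Its log2 fold change was −0.06 (SE 0.15), with a 95% interval on the fold from 0.757 to 1.21. Per kilobase, H2-K1 stood above H2-D1 by 1.49-fold to 1.59-fold in deficient libraries and by 1.37-fold to 1.64-fold in wildtype libraries, so the ordering of the 2 classical chains held in all 6.

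H2-T23 and H2-M3 encode non-classical, less polymorphic heavy chains. H2-T23 gives the Qa-1 molecule, which shows a leader peptide of other class I chains to the CD94/NKG2A receptor of NK cells. It measured 69.3, 69.7 and 79.9 CPM in deficient libraries, against 74.3, 99.2 and 72.2 CPM in wildtype libraries. Wildtype library 2 was highest and the groups overlapped, with a log2 fold change of −0.17 (SE 0.29). H2-M3, which presents peptides that begin with N-formyl methionine, as bacterial and mitochondrial proteins do, measured 36.0, 48.5 and 36.9 CPM in deficient libraries, against 55.6, 36.5 and 25.6 CPM in wildtype libraries. The wildtype libraries held both the highest and the lowest value, 2.17-fold apart. Its 95% interval on the fold ran from 0.528 to 2.01, so changes within those bounds remained compatible with these libraries. The bounds are not a limit of detection.

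The summed heavy-chain signal also lay close to equal in both genotypes. The 4 heavy-chain genes together gave 3660 ± 261 CPM in deficient cells and 3733 ± 395 CPM in wildtype cells (SD, n = 3 each). All 21 class I heavy-chain rows gave 4755 ± 331 CPM in deficient cells and 4817 ± 558 CPM in wildtype cells, a ratio of 0.987. Heavy-chain genes share sequence. Within GENCODE M21 transcripts, 0.957% of the 100-base windows of H2-K1, 3.59% of those of H2-D1 and 3.15% of those of H2-T23 were found unchanged in another gene, whereas B2m, H2-M3, Tap1, Tap2 and Nlrc5 had none. The gene sharing most of them was H2-Q10 for H2-K1, H2-Q1 for H2-D1 and Gm7030 for H2-T23, so the sum over 4 genes can also lose or gain shared reads.

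**Figure D1:**
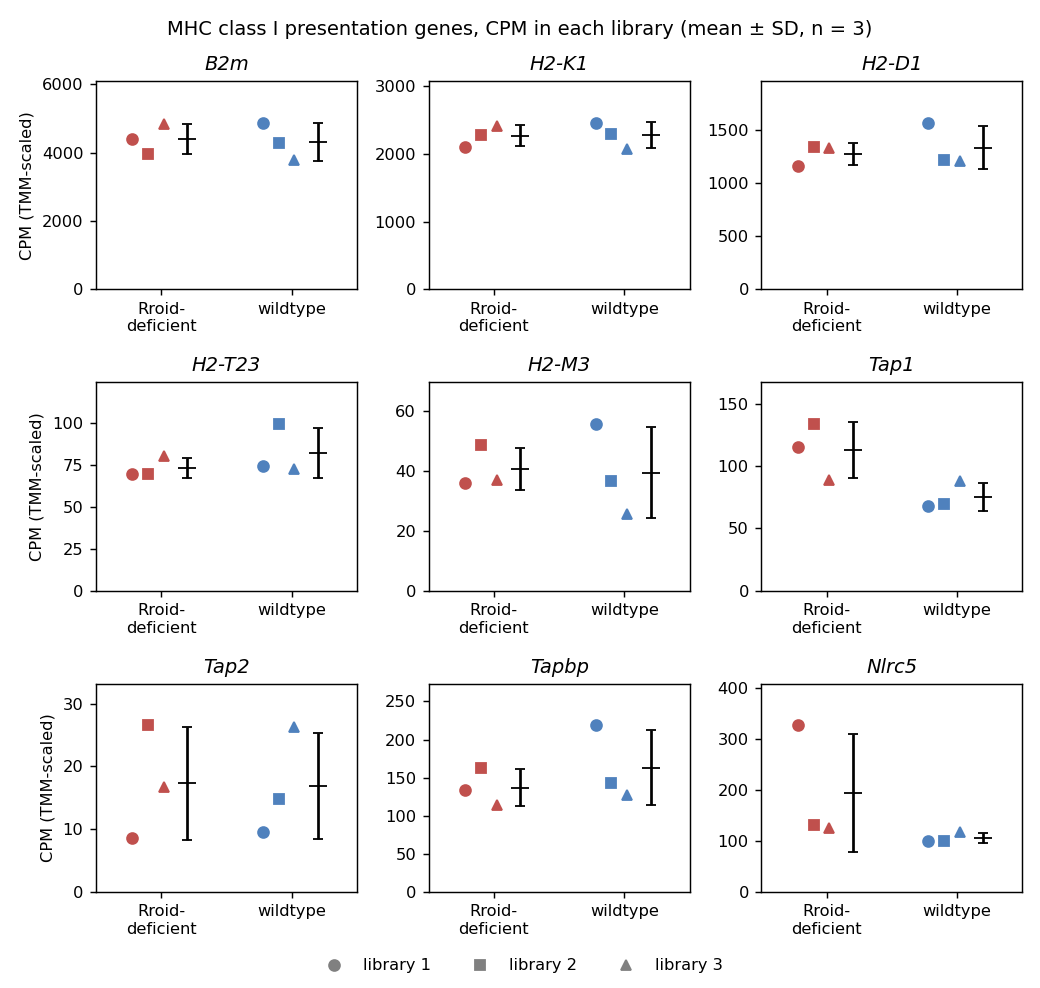
Level of each of the 9 class I presentation genes in CPM, with Rroid-deficient libraries on the left and wildtype libraries on the right of each panel. Points are libraries and the bars are the mean ± SD (n = 3 each); the deficient and wildtype points of B2m, H2-K1 and H2-D1 overlap, while those of Tap1 and Nlrc5 do not.

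Tap1 and Tap2 encode the 2 chains of the peptide transporter. Tap1 measured 115, 134 and 89.2 CPM in deficient libraries, against 67.9, 69.3 and 88.4 CPM in wildtype libraries. All 3 deficient libraries lay above all 3 wildtype ones, the nearest pair at 89.2 and 88.4 CPM. The mean was 113 ± 22.6 CPM in deficient cells and 75.2 ± 11.5 CPM in wildtype cells (SD, n = 3 each), a log2 fold change of 0.59 (SE 0.28, adjusted p = 0.918, edgeR). Its 95% interval on the fold ran from 0.969 to 2.33. Tap2 measured 8.65, 26.6 and 16.7 CPM in deficient libraries, against 9.59, 14.8 and 26.3 CPM in wildtype libraries. Library 1 of each genotype was lowest, and the groups overlapped. Its reads numbered 60, 163 and 121 in deficient libraries, against 64, 138 and 167 in wildtype libraries. The 95% interval of its fold, from 0.362 to 2.90, is the widest of the 9 genes. The 2 chains did not keep 1 ratio between libraries: per kilobase Tap1 exceeded Tap2 by 3.48-fold to 9.22-fold in deficient libraries and by 2.32-fold to 4.89-fold in wildtype libraries. In the GENCODE M21 annotation 3.87% of the exonic bases of Tap1 and 18.5% of those of Tap2 also belong to a gene on the other strand, and the amplification kit does not mark strand. For Tap1 that neighbour is the immunoproteasome gene Psmb9, to which no counted row was matched. Reads from the 2 genes in their shared bases cannot be told apart.

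Tapbp encodes tapasin, the chaperone that links empty class I to TAP. It measured 133, 163 and 114 CPM in deficient libraries, against 219, 143 and 127 CPM in wildtype libraries. Wildtype library 1 was 1.34-fold above the next library and the rest overlapped, with a log2 fold change of −0.25 (SE 0.27). Without wildtype library 1 the estimate was 0.0044. Its 29.0% of exonic bases shared with other genes is the highest share of the 9, part of it with Zbtb22 on the same strand.

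Nlrc5, on chromosome 8, encodes the class I transactivator. It measured 327, 131 and 125 CPM in deficient libraries, against 99.8, 98.9 and 117 CPM in wildtype libraries. Deficient library 1 stood 2.50-fold above the next library, and the other 2 deficient libraries lay above the wildtype ones by a small margin. The log2 fold change was 0.88 (SE 0.37, unadjusted p = 0.0369, adjusted p = 0.914, edgeR), and it was 0.28 without deficient library 1. DESeq2 gave an adjusted p of 0.482, and across all alternatives it ranged from 0.222 to 0.999. Deficient library 1 also had the highest sums over class II genes, which mark B cells and antigen-presenting cells, and over B cell markers. It was not the highest over the myeloid and dendritic cell markers. The 11 class II list genes summed to 175 CPM in deficient library 1, with 86.6 CPM of it from H2-DMa. Their sums were 21.7 and 47.6 CPM in the other 2 deficient libraries and between 31.8 and 44.3 CPM in wildtype libraries. Not all of them were high in deficient library 1, where H2-Ab1 and H2-Eb1 had 0 reads. The 8 B cell markers summed to 52.8 CPM there, against 11.9 and 12.6 CPM in the other 2 deficient libraries and between 7.94 and 11.6 CPM in wildtype libraries, with Pax5 at 0 in all 6. Their part in the Nlrc5 result was not tested.

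**Figure D2:**
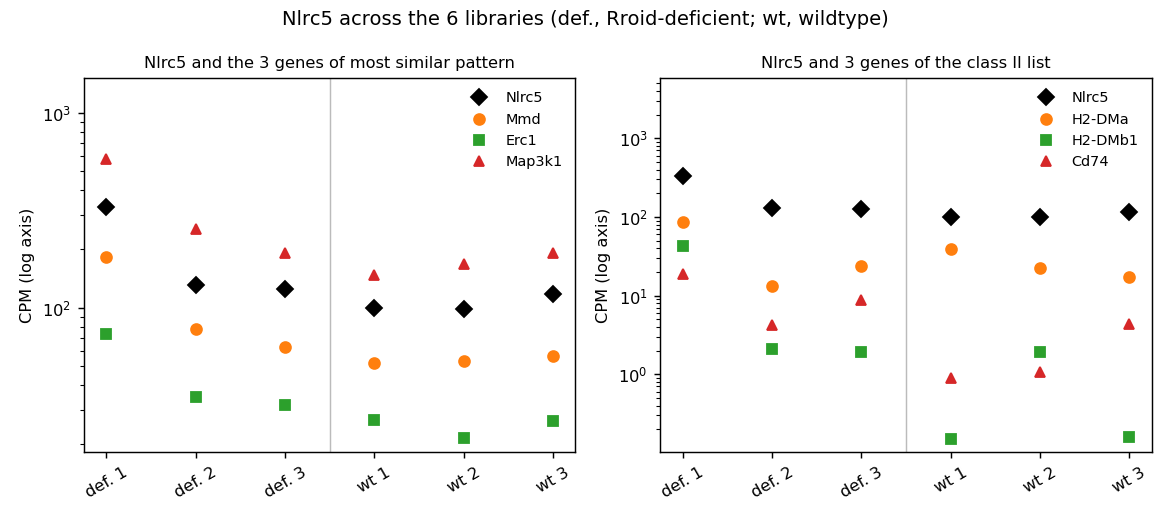
CPM of Nlrc5 (black diamonds) on a log axis in each library, beside the 3 genes closest to it in pattern (left) and 3 class II list genes (right), with deficient libraries left of the grey line and wildtype libraries right of it. Deficient library 1 is the highest of the 6 libraries for every gene shown, and Nlrc5 is at 327 CPM there. The left genes were picked for this likeness. Of the class II list genes not shown, H2-Ab1 and H2-Eb1 had 0 reads in that library.

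By the root mean square difference of centred log2(CPM + 1) over the 6 libraries, among 6147 candidate genes, the closest to Nlrc5 were Mmd at 0.094, Erc1 at 0.12 and Map3k1 at 0.13. The nearest of the other 8 members was Tap1 at 0.46. For H2-K1 the closest were Coro1b at 0.047, Ep300 at 0.049 and the pseudogene Gm12183 at 0.056, and H2-D1 stood at 0.085. For Tap1 they were Psd4 at 0.081, Gatad2a at 0.082 and Esd at 0.094, while H2-K1, its nearest member, was at 0.40. H2-K1 varied least from its own mean among these 3 genes, with a root mean square of 0.093 on that scale, against 0.35 for Tap1 and 0.59 for Nlrc5.

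**Figure D3:**
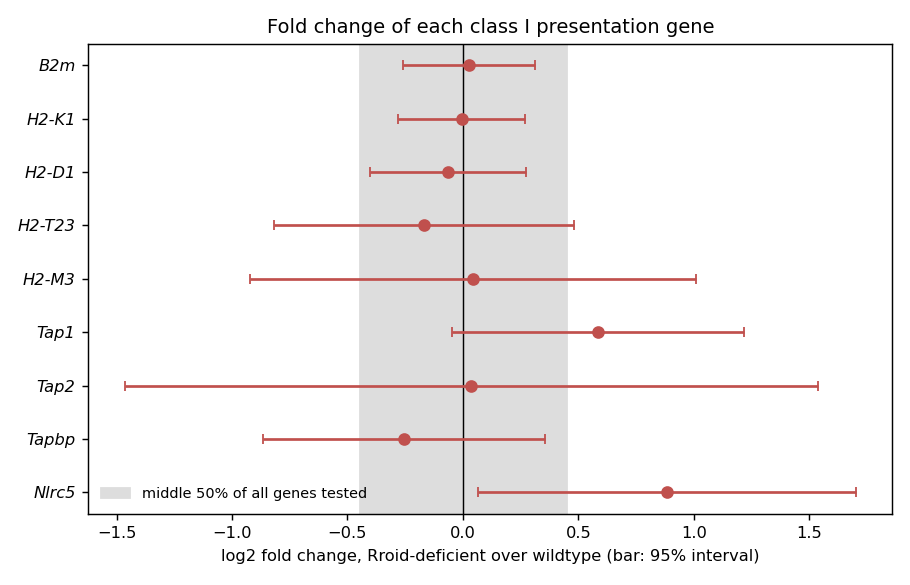
log2 fold change of each of the 9 genes, Rroid-deficient over wildtype, with its 95% interval from edgeR (bar); the grey band is the interquartile range of all genes tested. The interval of Nlrc5 is the only one of the 9 that does not reach 0, and none passed after adjustment.

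The order of the genes by level per kilobase of exon, averaged over all 6 libraries, was B2m at 5056, H2-K1 at 773, H2-D1 at 508, Tapbp at 41.3, H2-M3 at 27.7, H2-T23 at 26.8, Nlrc5 at 17.6, Tap1 at 17.2 and Tap2 at 4.52 CPM per kb. The library values of neighbours in this order overlapped from Tapbp to Tap1, and the order from H2-M3 to Tap1 changed when mean transcript length was used in place of the union of exons. B2m, H2-K1, H2-D1 and Tapbp led and Tap2 came last under both lengths. The distances between them depend on the length used: by mean transcript length B2m stayed at 5056, while H2-K1 stood at 2251, H2-D1 at 1448 and Tapbp at 137 CPM per kb.

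Other class I heavy chains were scanned from a list of 26 names, of which 22 were in the rows and 10 could be tested. None passed, with 7 above 0 and 3 below and a median log2 fold change of 0.29; 9 were at 0 in every library. The smallest p-values on the list belonged to the paralogs H2-T22 and H2-T10, which encode class Ib chains recognised by some gamma delta T cells. H2-T22 measured 97.6, 81.7 and 63.7 CPM in deficient libraries, against 44.0, 34.9 and 36.5 CPM in wildtype libraries, a log2 fold change of 1.07 (SE 0.34, adjusted p = 0.895). H2-T10 measured 2.74, 3.10 and 6.64 CPM in deficient libraries, against 25.0, 12.3 and 11.5 CPM in wildtype libraries, a log2 fold change of −1.96 (SE 0.80, adjusted p = 0.914). Each gene's groups did not overlap, in opposite directions, and neither passed. Per kilobase H2-T22 exceeded H2-T10 by 9.62-fold to 35.7-fold in deficient libraries and by 1.76-fold to 3.18-fold in wildtype libraries. Their sum was 85.2 ± 15.0 CPM in deficient cells and 54.8 ± 12.4 CPM in wildtype cells (SD, n = 3 each). The 2 genes share 100-base windows with each other, 261 of them, or 7.06% of those of H2-T10 and part of the 8.86% of those of H2-T22, and the part of shared reads in these values was not tested.

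**Figure D4:**
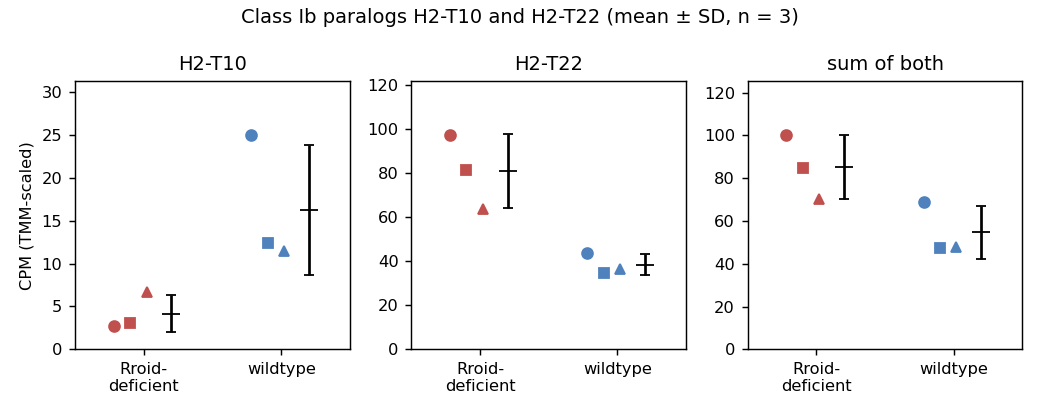
CPM of H2-T10, of H2-T22 and of their sum in each library, with Rroid-deficient libraries left of wildtype libraries and bars at the mean ± SD (n = 3 each). H2-T22 is higher and H2-T10 lower in all 3 deficient libraries than in any wildtype library, and the sums are 70.4 CPM and above in deficient libraries, against 69.1 CPM and below in wildtype libraries.

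H2-Q6 and H2-Q7, Qa-2 family heavy chains, had the highest CPM on that list. H2-Q6 averaged 406 ± 67.6 CPM in deficient cells and 484 ± 85.0 CPM in wildtype cells (SD, n = 3 each). H2-Q7 averaged 435 ± 32.4 CPM in deficient cells and 375 ± 49.0 CPM in wildtype cells. Both overlapped between the genotypes, and they share sequence with each other. The 5 H2-Q rows summed to 985 ± 99.9 CPM in deficient cells and 1011 ± 151 CPM in wildtype cells.

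The loading and trimming list had 14 testable genes, with 5 above 0, 9 below and none passing. Calr, the lectin chaperone of the loading complex, measured 80.3, 204 and 177 CPM in deficient libraries, against 284, 187 and 196 CPM in wildtype libraries. Deficient library 1 was lowest and wildtype library 1 highest, and the log2 fold change was −0.53 (SE 0.34, adjusted p = 0.925). It was −0.22 without deficient library 1 and −0.0090 with library 1 of both genotypes left out. Uggt1, which checks glycoprotein folding, averaged 171 ± 41.4 CPM in deficient cells and 138 ± 5.82 CPM in wildtype cells. Canx, the membrane-bound lectin chaperone of early folding, had a log2 fold change of −0.06 (SE 0.20). Pdia3, the oxidoreductase of the loading complex, had one of −0.14 (SE 0.20).

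Of 5 names on the immunoproteasome list, 4 were in the rows. The subunit Psmb8, which replaces a constitutive proteasome subunit, averaged 135 ± 45.9 CPM in deficient cells and 141 ± 71.4 CPM in wildtype cells. Psme1 and Psme2 encode the 2 chains of the proteasome activator PA28. Psme1 averaged 248 ± 51.2 CPM in deficient cells and 319 ± 52.8 CPM in wildtype cells. Psme2 averaged 16.2 ± 3.01 CPM in deficient cells and 9.06 ± 3.30 CPM in wildtype cells, with its groups not overlapping. None of the 4 passed.

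The 17 regulators gave 6 above 0 and 11 below, a median log2 fold change of −0.12, and 0 passing. Atf1, of the X2 box complex, averaged 151 ± 57.0 CPM in deficient cells and 106 ± 35.5 CPM in wildtype cells, and Nfkb1 averaged 222 ± 30.2 CPM in deficient cells and 181 ± 23.3 CPM in wildtype cells, with its groups not overlapping. Creb1 had a log2 fold change of 0.20 (SE 0.20).

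**Figure D5:**
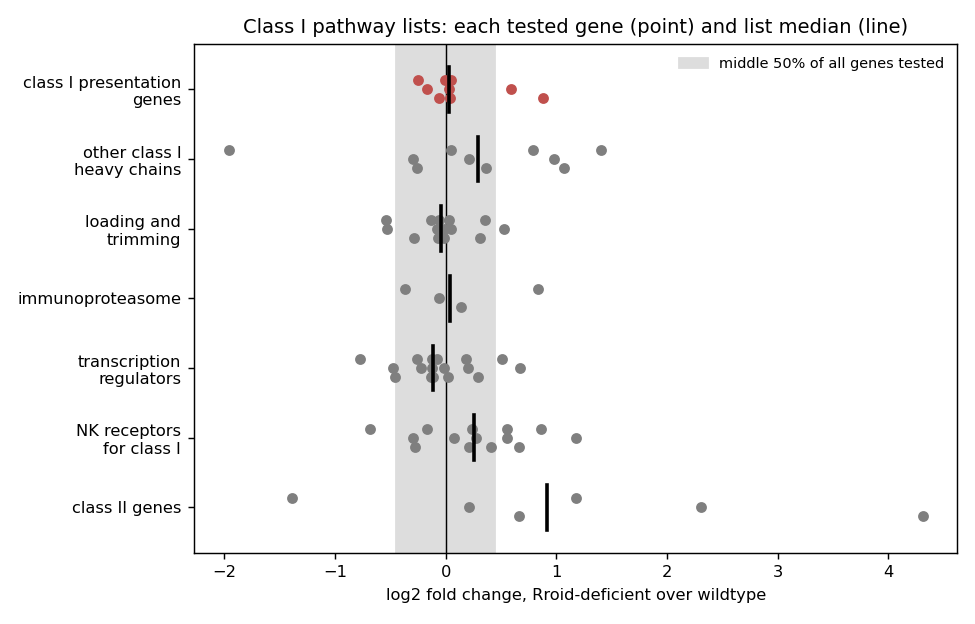
log2 fold change, Rroid-deficient over wildtype, of each tested gene (points) and the list medians (lines) for the 9 class I genes and the related lists, with the interquartile range of all genes tested as a grey band. The medians of loading genes and regulators lie at −0.04 and −0.12, that of the other class I genes at 0.29 and that of the class II genes at 0.92.

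Class I receptors on the NK cells themselves were taken as the other side of the pathway. Of 14 testable receptors 10 were above 0 and 4 below, none passed, and the median log2 fold change was 0.26. Klrd1, CD94, the partner chain of the receptor for Qa-1, measured 483, 427 and 459 CPM in deficient libraries, against 545, 547 and 566 CPM in wildtype libraries. All 3 deficient libraries lay below all 3 wildtype ones, with a log2 fold change of −0.28 (SE 0.15, adjusted p = 0.925). Klrc1, which with Klrd1 makes the inhibitory receptor for H2-T23, averaged 272 ± 68.6 CPM in deficient cells and 205 ± 28.6 CPM in wildtype cells (log2 fold change 0.41, SE 0.24). Klra6, a Ly49 family gene, averaged 98.2 ± 14.0 CPM in deficient cells and 54.1 ± 17.3 CPM in wildtype cells. Klra9, another Ly49 gene, averaged 97.8 ± 18.5 CPM in deficient cells and 157 ± 16.3 CPM in wildtype cells. Neither overlapped between the genotypes. Ly49 genes form a family of related sequences, and reads shared among them were not measured here. Klra4 averaged 597 ± 72.9 CPM in deficient cells and 505 ± 128 CPM in wildtype cells. Across the 6 related lists, 65 genes were tested by edgeR, 35 above 0 and 30 below, with none passing. DESeq2 also passed none, but it gave no adjusted p for the class II list gene H2-DMb1. At an unadjusted edgeR p under 0.05 there were 5, where 5.29% of all genes tested reached it. The groups did not overlap for 11, or 16.9%, against 12.4% of all genes tested.

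Class II genes mark B cells and antigen-presenting cells and were listed to show RNA of such cells; of 6 that could be tested 5 were above 0 and none passed. H2-DMb1, which edits the peptides on class II, measured 43.0, 2.12 and 1.94 CPM in deficient libraries, against 0.150, 1.93 and 0.157 CPM in wildtype libraries, with 298 reads in deficient library 1. Cd74, the class II invariant chain, measured 18.7, 4.24 and 8.71 CPM in deficient libraries, against 0.899, 1.07 and 4.40 CPM in wildtype libraries. H2-DMa had a log2 fold change of 0.66 with deficient library 1, at 86.6 CPM, and −0.49 without it.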

How the data were processed

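Per the submitters' processing notes, reads were handled with Trimmomatic 0.33, TopHat2 2.1.0, HTSeq 0.6.1 and DESeq2 on NCBIM37 and mm9. Not given in the sources used here were settings and the counting strand. The authors deposited raw counts per Ensembl gene. Rows that name no gene, 80.0% to 84.4% of listed reads, were left out. Symbols were matched for 32919 of 37991 rows. Genes kept by filterByExpr (11724) were tested with edgeR 4.0.16 (quasi-likelihood, TMM, no block, R 4.3.3) and adjusted by Benjamini-Hochberg over all of them. Intervals are for the fold change and were computed from the spread between libraries. The common biological coefficient of variation was 0.661. The steps were tested on simulated data. Every pair of libraries differed by more than sampling noise: the smallest chi-square per degree of freedom was 19.2. Exon lengths and shared 100-base windows came from GENCODE M21 on GRCm38, another build than the counts, so no coordinates were joined. Alternatives were other scalings, filters, DESeq2 1.42.0, limma 3.58.1, a replicate block and leaving out libraries. Genes named from related lists were the 2 with the smallest p and the 2 with the highest mean CPM; 1 of them is not reported here. Klrc1 was added after its values were seen. Members, lists and tests were chosen with earlier results of these data known.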

Additional observations from a re-analysis of the deposited data

How the results depend on the processing

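The count of the 9 genes passing was 0 under all alternatives run, and the directions of Tap1, Nlrc5, H2-T23, H2-T10 and H2-T22 held in all 16 refits. For H2-T23 the direction held by little: its log2 fold change was −0.0069 without wildtype library 2, where it was highest. Over all genes the count was 2 in the main test. It was 98 with no filter, 64 with DESeq2, 1 with limma-voom, 8 with quality weights, and 0 with library 1 of both genotypes left out. Leaving out each library gave 0 to 0. The related-list count was 1 with no filter (Cd1d2, named after its values were seen) and 0 otherwise. Same-numbered libraries did not deviate together (correlations 0.014, −0.017 and 0.040), so the numbers were not taken as pairs; the fit with a replicate block passed 0 genes and gave Psmb8 0.0093. Some log2 fold changes that had not passed changed sign. Leaving out each library gave −0.064 to 0.11 for B2m, −0.073 to 0.043 for H2-K1, −0.13 to 0.057 for H2-D1, −0.19 to 0.37 for H2-M3, −0.41 to 0.50 for Tap2, −0.41 to 0.0044 for Tapbp, −0.17 to 0.067 for Canx, −0.25 to 0.021 for Pdia3, −0.37 to 0.43 for Psmb8 and −0.49 to 1.07 for H2-DMa. Without deficient 1 and wildtype 1 together, H2-K1 was 0.10, H2-D1 0.13, Tapbp 0.028, H2-Q6 0.016, Canx 0.0029, Psmb8 0.61 and H2-DMa −0.076. Quality weights gave H2-K1 0.078, H2-D1 0.080, Tap2 −0.081 and Psmb8 0.35, and limma-voom gave Psmb8 0.016. Upper-quartile scaling gave B2m −0.0022 and Tap2 −0.022, and library totals gave Tap2 −0.021. The cause was not tested. Scaling moved the median of all genes to between −0.017 and 0.029. The spread between 3 libraries a group limits what can be detected, among the 9 genes most for Tap2 and H2-M3.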

Other observations

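Cd1d2, a class I-like gene close in sequence to Cd1d1 and named here after its values were seen, had 0, 0 and 2 reads in deficient libraries, against 247, 3 and 0 reads in wildtype libraries, so its signal lay in wildtype library 1.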
